A study of Homo sapiens with 12 samples.

Results

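The translation initiation and elongation factors are the proteins that carry a ribosome onto an mRNA, start it at the right codon and move it along. They were followed here in WM35, a human melanoma cell line, through every array probe mapped to a gene symbol starting with EIF or EEF, with the EIF2AK kinases, the EIF4EBP binding proteins, EEF2K and pseudogenes left out. Of 95 such probes of 58 genes, 81 probes of 57 genes were detected at a detection p-value under 0.05 on 2 or more arrays, among 24325 probes and 12131 named genes that passed the same filter. The 14 probes that did not pass belonged to 9 genes, and EIF4E, the cap-binding factor itself, was the gene with no passing probe, since none of its 5 probes passed. The 81 probes fall into EIF2 (5 probes of 5 genes), EIF2B (6 of 5), EIF3 (19 of 15), EIF4 (16 of 11), EIF1, EIF5 and EIF6 together (14 of 10) and the elongation factors (21 of 11). The symbols also take in a divergent long non-coding RNA, EIF3J-DT, and 4 methyltransferases of elongation factors, EEF1AKMT1, EEF1AKMT2, EEF1AKMT3 and EEF2KMT. EIF1AY, a Y-linked copy of EIF1AX, is counted but its values are not given. EIF4G3 and EEF1E1 were not analysed here.

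The study treated cells with lactimidomycin (LTM) or with trifluorothymidine (TFT, also called trifluridine), each at the concentration that inhibits by 75%, which had been determined earlier at 72 h. Cells were harvested after 24 h of LTM (2 arrays), 8 h of LTM (3), 24 h of TFT (2) or 8 h of TFT (3), and cells given the vehicle DMSO served as the control (2). No time is given for the control arrays, so both times were set against the same 2 arrays. The stated aim was to derive drug signatures and relate them to the outcome of melanoma patients, and the comparisons below ask which translation factor mRNAs the 2 drugs moved.

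Lactimidomycin is a glutarimide macrolide that sits in the E site of the large ribosomal subunit and blocks translocation, the step that EEF2 drives. Trifluorothymidine is a thymidine analogue that is built into DNA and inhibits thymidylate synthase. In initiation, EIF2 brings the initiator tRNA and EIF2B recharges EIF2 with GTP. EIF3 is the scaffold on the small subunit, and the EIF4 factors bind the cap, unwind the leader and recruit the small subunit. EIF1, EIF1A, EIF5 and EIF5B govern the choice of the start codon and the joining of the large subunit, and EEF1A, its exchange factor EEF1B and EEF2 then elongate the chain. Phosphorylation of EIF2S1, the alpha subunit of EIF2, turns EIF2 into an inhibitor of EIF2B, and this is the core of the integrated stress response. Many translation factor mRNAs start with a C followed by an unbroken run of pyrimidines, the terminal oligopyrimidine motif that ties their translation to growth signals.

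Promoter windows of RefSeq (GRCh38.p14) were matched by symbol for 45 of the member genes (61 windows). Of these windows, 12 (19.7%) began transcription at a C followed by pyrimidines only, counting runs of at least 5 bases that start at the annotated start, against 4.07% of the 35116 windows in the table. The windows shown run from 70 bases before to 30 bases from the annotated start on, and capitals mark the run of pyrimidines that begins at the start. They are shown because EIF4A2, EIF2B2, EIF2B5 and EIF3D carry large increases below, EIF4A1 is the close relative of EIF4A2, and EEF1A1 and EEF2 are the textbook genes with the motif. The positions are chr3:186783507-186783606 on the plus strand for EIF4A2, chr22:36529137-36529236 on the minus strand for EIF3D, chr19:3985434-3985533 on the minus strand for EEF2, chr6:73521003-73521102 on the minus strand for EEF1A1, chr17:7572755-7572854 on the plus strand for EIF4A1, chr14:75002851-75002950 on the plus strand for EIF2B2 and chr3:184135288-184135387 on the plus strand for EIF2B5.
EIF4A2: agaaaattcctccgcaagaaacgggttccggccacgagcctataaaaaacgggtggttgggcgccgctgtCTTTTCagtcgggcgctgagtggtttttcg
EIF3D: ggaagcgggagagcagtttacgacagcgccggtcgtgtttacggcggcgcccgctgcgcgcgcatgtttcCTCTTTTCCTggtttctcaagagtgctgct
EEF2: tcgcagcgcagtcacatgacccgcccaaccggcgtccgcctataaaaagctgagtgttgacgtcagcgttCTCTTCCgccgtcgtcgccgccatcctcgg
EEF1A1: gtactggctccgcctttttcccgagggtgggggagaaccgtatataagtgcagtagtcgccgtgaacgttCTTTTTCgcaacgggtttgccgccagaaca
EIF4A1: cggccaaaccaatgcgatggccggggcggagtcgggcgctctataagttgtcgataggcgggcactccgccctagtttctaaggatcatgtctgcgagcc
EIF2B2: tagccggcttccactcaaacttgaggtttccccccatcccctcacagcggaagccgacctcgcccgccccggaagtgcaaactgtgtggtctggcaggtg
EIF2B5: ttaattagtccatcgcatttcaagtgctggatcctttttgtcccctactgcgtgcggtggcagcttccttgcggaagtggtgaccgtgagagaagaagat
EIF4A2, EIF3D, EEF2 and EEF1A1 begin with such a run, whereas these windows of EIF4A1, EIF2B2 and EIF2B5 do not. On either strand of the full windows of 300 bases, TATAAA was present in 3.28% of member windows and 11.5% of all windows, CACGTG in 16.4% and 7.26%, and CCGGAAGT in 16.4% and 4.14%. A match is a description of these letters and not evidence of a site in use.

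The probes were hybridised on 12 positions of 1 BeadChip, and 41.3% to 43.5% of 47230 probes were detected on an array. Values below are log2 intensities after background correction and quantile normalization, and a difference of 1 is a 2-fold change. Of 10 melanocytic markers with a probe, EDNRB, MIA, MITF, SOX10 and TFAP2A were detected on all arrays. MLANA, S100B, TYR and TYRP1 were detected on none, and 1 was detected on some arrays only. PTPRC and CD3E for blood, CDH1, KRT5 and KRT14 for epithelium and CDH5 and VWF for endothelium were detected on no array. CD14 for blood and LUM for fibroblasts were detected on all. The remaining epithelial marker EPCAM, the remaining endothelial marker PECAM1 and 3 of 4 fibroblast markers were detected on some arrays only. Nothing in the labels states that each replicate came from its own culture, so p-values measure the spread between these arrays, which may be technical.

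Before any result, 3 arrays need naming because their profiles resembled other labels than their own. With each probe centred on its mean over the 12 arrays, TFT 8 h replicate 3 correlated at 0.73 and 0.70 with LTM 8 h replicates 2 and 3 and at -0.49 with both other TFT 8 h arrays. LTM 8 h replicate 1 correlated at 0.75 with TFT 24 h replicate 2 and at -0.46 and -0.39 with LTM 8 h replicates 2 and 3. TFT 24 h replicate 1 correlated at 0.66 with both TFT 8 h replicates 1 and 2 and at 0.44 with the other TFT 24 h array. Labels were kept as given, and every comparison was fitted on all 12 arrays and again on the 9 arrays without these 3. Because the 3 were picked by these same profiles, p-values on 9 arrays are not an independent test. The LTM 24 h and control groups hold none of the 3, so their means are the same in both fits and only the spread differs.

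After 24 h of LTM more translation factor probes rose than fell, with EIF4A2, EIF2B2, EIF4G2, EIF3D, EIF2A and EIF2B5 foremost. On 12 arrays 30 of the 81 probes (27 genes) rose and 10 (9 genes) fell in LTM 24 h cells relative to control cells at a Benjamini-Hochberg adjusted p under 0.05 in limma, where over all 24325 probes 20.0% rose and 20.9% fell. The median log2 fold change was 0.23 over the member probes and -0.05 over all probes. The 9-array fit called 35 rises and 13 falls, where 26.1% of all probes rose and 28.2% fell, and it held all 40 calls of the 12-array fit. How far a factor rose depended on the scaling for bright probes: with arrays scaled to a common median instead of quantiles, 19 member probes rose and 15 fell. Of all 24325 probes, 4260 rose and 5356 fell under that scaling. In bulk RNA of equal input, a level is a share of the RNA measured, and fewer cells cannot be told apart from less RNA per cell.

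**Figure D1:**
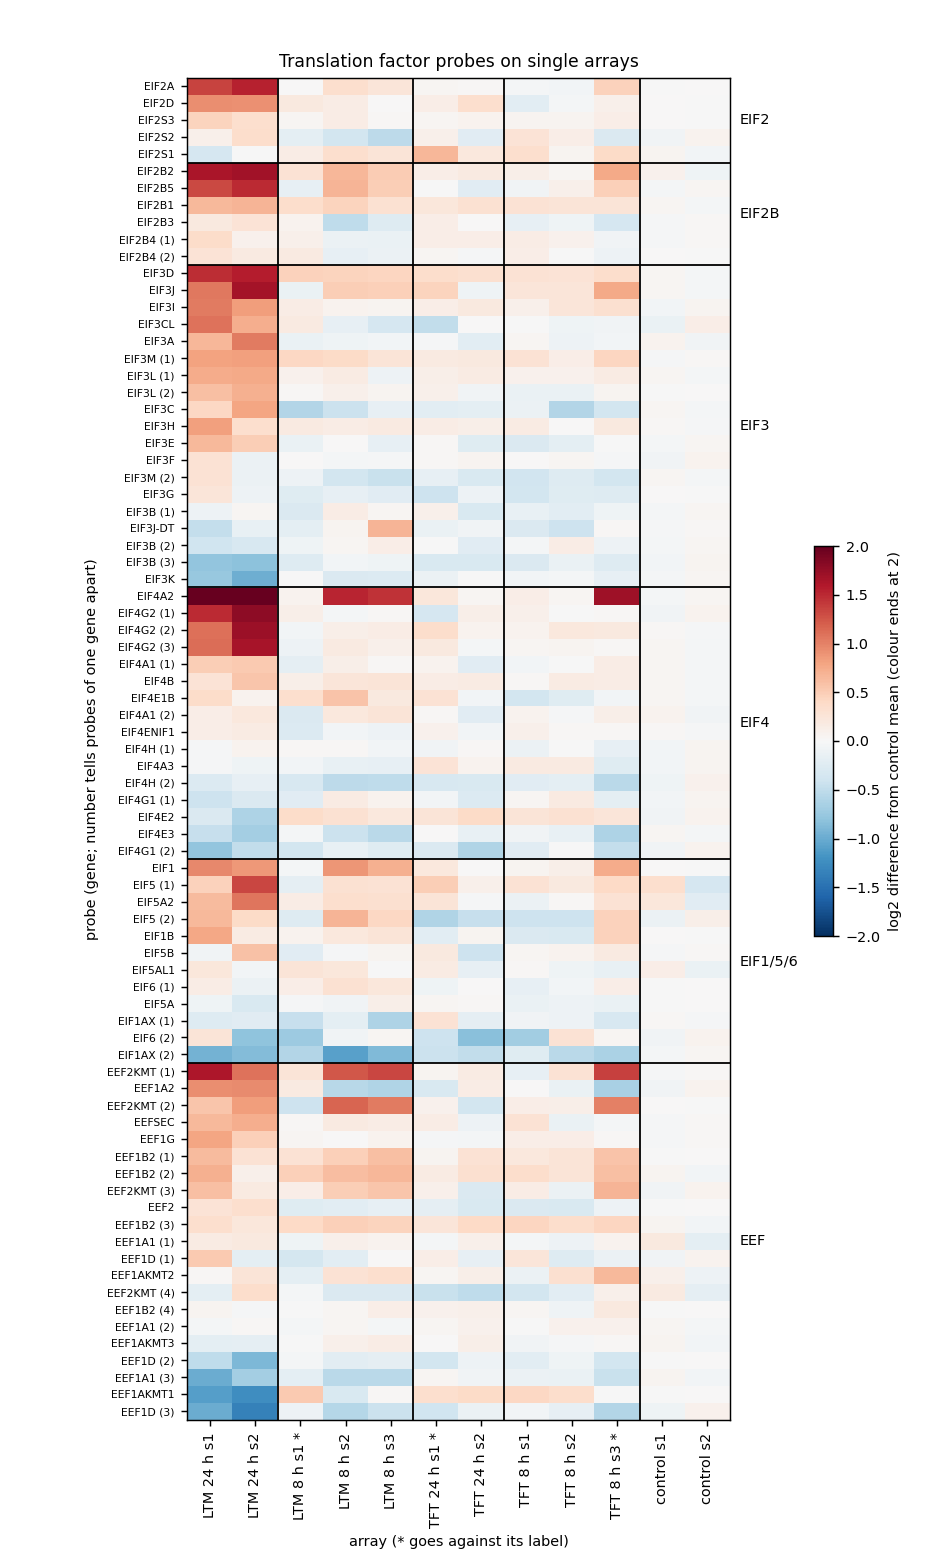
Log2 difference of each of 79 member probes (rows, by subfamily; EIF1AY is not drawn) from the control mean on each of the 12 arrays (columns, by label), with colours ending at 2 either way. The 2 LTM 24 h columns hold most of the strong colour, and the starred arrays, whose profile went against the label, look unlike the other arrays of their label.

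The EIF2 and EIF2B calls of LTM 24 h against control were rises. In LTM 24 h cells 3 of 5 EIF2 probes and 3 of 6 EIF2B probes rose and none fell on 12 arrays. Over all probes, 20.0% rose and 20.9% fell. The median log2 fold changes were 0.39 for EIF2 and 0.45 for EIF2B. EIF2B2, the beta subunit of EIF2B, measured 12.24 and 12.28 in LTM 24 h cells and 10.69 and 10.52 in control cells. Its log2 fold change was 1.66 ± 0.23 (SE), 3.16-fold, with an adjusted p of 0.00034. EIF2B5, the catalytic epsilon subunit, measured 11.01 and 11.18 in LTM 24 h cells and 9.66 and 9.73 in control cells, a log2 fold change of 1.40 ± 0.26 (adjusted p = 0.00181). Both LTM 24 h arrays lay above all other arrays for both genes. EIF2B1, the alpha subunit, rose by less (0.66, adjusted p = 0.00323), and under median scaling its 0.43 was not called. EIF2B3 and both probes of EIF2B4, the gamma and delta subunits, each had a log2 fold change of 0.23 and did not pass the test.

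EIF2A, which can bring the initiator tRNA to some mRNAs without EIF2, had 12.65 and 12.84 in LTM 24 h cells and 11.29 and 11.31 in control cells (log2 fold change 1.44 ± 0.20, adjusted p = 0.000324). EIF2D, another factor able to deliver tRNA without EIF2, rose by 0.92 (adjusted p = 0.00109). Of the 3 subunits of EIF2 itself, EIF2S3 rose by 0.39 (adjusted p = 0.045), a call that was lost in 10 of 12 fits that each left out 1 array and under median scaling (0.11). EIF2S1 and EIF2S2 had log2 fold changes of -0.17 and 0.23, which did not pass the test. The EIF2S1 arrays of LTM 24 h, at 7.90 and 8.23, overlapped the control arrays at 8.28 and 8.18.

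**Figure D2:**
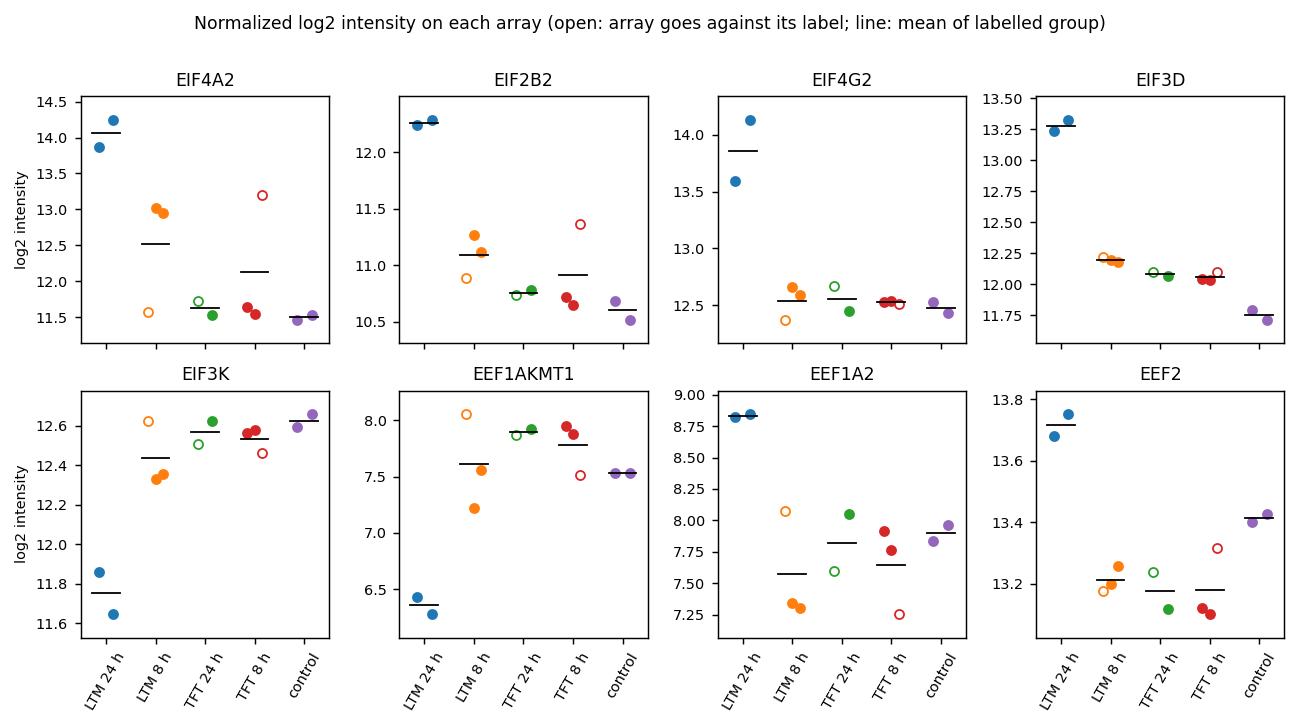
Log2 intensity of 8 member probes on each array, by label from LTM 24 h on the left to control on the right, with a line at the mean of each labelled group and open points for the 3 arrays that went against their label. EIF4A2 and EIF2B2 sit highest in LTM 24 h, EIF3K and EEF1AKMT1 lowest there, and the open points of EIF4A2 lie away from the other arrays of their own label at 8 h.

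EIF3, the factor with the most subunits, held the most calls: 11 of 19 probes rose and 2 fell in LTM 24 h cells. These shares of 57.9% and 10.5% stand against 20.0% and 20.9% of all probes. The median log2 fold change of EIF3 was 0.58. EIF3D, a subunit that can bind the cap of selected mRNAs, measured 13.23 and 13.32 in LTM 24 h cells and 11.79 and 11.71 in control cells. Its log2 fold change of 1.53 ± 0.14 had the lowest adjusted p of the members (5.1e-05). EIF3J, a loosely attached subunit that helps to place the mRNA, had 10.72 and 11.33 in LTM 24 h cells and 9.70 and 9.62 in control cells (1.36 ± 0.29, adjusted p = 0.00355). EIF3A, the largest subunit and the base of the scaffold, had 10.41 and 10.79 in LTM 24 h cells and 9.82 and 9.68 in control cells (0.85 ± 0.17, adjusted p = 0.00218).

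The other rises were smaller: EIF3I 0.94, EIF3CL 0.91, 1 of 2 EIF3M probes 0.81, the 2 EIF3L probes 0.75 and 0.66, EIF3C 0.60, EIF3H 0.58 and EIF3E 0.57. EIF3C and EIF3CL are near-identical copies, so their probes may share signal. EIF3H moved to 0.33 without LTM 24 h replicate 1 and was not called under median scaling (0.18). The second EIF3M probe had 0.08, and EIF3F and EIF3G had 0.09 and 0.07, none of which passed. EIF3K, a peripheral subunit that pairs with EIF3L, went the other way, with 11.86 and 11.65 in LTM 24 h cells and 12.59 and 12.66 in control cells (-0.87 ± 0.16, adjusted p = 0.00161). Both LTM 24 h arrays were below all other arrays, while EIF3L stood higher in LTM 24 h than in control with both of its probes. Of 3 EIF3B probes, 1 fell (-0.81, adjusted p = 0.0015), and the others had -0.37 and -0.03 and did not pass on 12 arrays. The probe with -0.37 passed on 9 arrays (adjusted p = 0.0376).

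Much of the EIF3 shift depended on the scaling. Under median scaling 5 EIF3 probes rose and 4 fell, where 4260 and 5356 of all 24325 probes did, and the EIF3 median went to 0.08. EIF3I (0.38), EIF3L and EIF3M were then not called, and EIF3E turned to -0.08. EIF3D, EIF3J and EIF3A stayed called, as did the falls of EIF3K and of the EIF3B probe called before. The other EIF3B probes were then called as falls, both at -0.58 (adjusted p = 0.0413 and 0.0271).

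**Figure D3:**
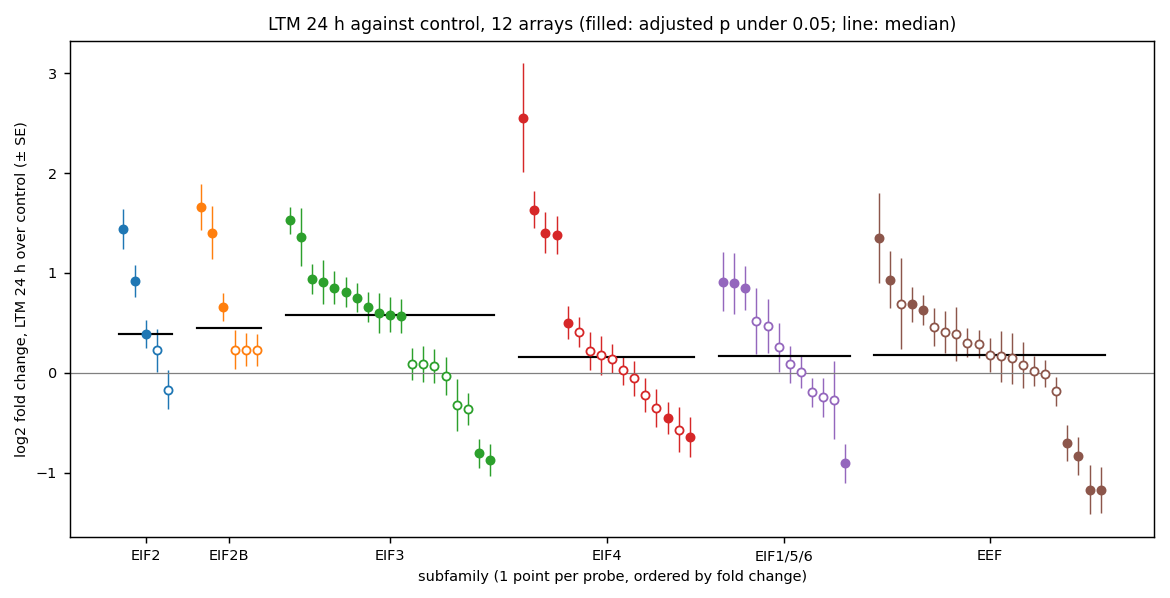
Log2 fold change of LTM 24 h over control with its SE for each member probe except EIF1AY on 12 arrays, in columns by subfamily, filled where the adjusted p was under 0.05 and with a line at the subfamily median. The line is highest for EIF3 at 0.58, and EIF4A2 is the highest point of all at 2.56.

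Among the EIF4 factors 5 of 16 probes rose and 2 fell in LTM 24 h cells, with a median of 0.16. Of all probes, 20.0% rose and 20.9% fell. The largest EIF4 changes were those of EIF4A2 and EIF4G2. EIF4A2, one of the paired DEAD-box helicases that unwind the mRNA leader, had the largest change of all 81 probes. It measured 13.87 and 14.24 in LTM 24 h cells, 13.02 and 12.95 in LTM 8 h replicates 2 and 3, and 11.47 and 11.53 in control cells. LTM 8 h replicate 1 had 11.57, near the controls, whereas TFT 8 h replicate 3 had 13.20, among the LTM arrays. The remaining TFT arrays lay between 11.53 and 11.73. The log2 fold change of LTM 24 h over control was 2.56 ± 0.54, 5.88-fold, with an adjusted p of 0.00348 on 12 arrays and 9.33e-07 on 9 arrays, and it was 1.97 under median scaling.

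EIF4A1, the close relative that supplies most of the helicase in many cells, rose with 1 probe by 0.50 (adjusted p = 0.0324), with 14.69 and 14.72 in LTM 24 h cells and 14.24 and 14.17 in control cells. Its other probe had 0.17 and did not pass, and the call was lost under median scaling and in fits without either control or either LTM 24 h array. EIF4A3, the relative that works in the exon junction complex, had -0.05. In the promoter windows above, EIF4A2 begins with a pyrimidine run and EIF4A1 does not, and a link of this to their levels was not tested.

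EIF4G2, a relative of EIF4G1 that lacks the EIF4E-binding part and initiates without it, rose with all 3 of its probes by 1.38, 1.63 and 1.40 (adjusted p = 0.000347, 0.000113 and 0.000418). Under median scaling these were 0.80, 1.56 and 0.93, and all 3 stayed called. One of these probes had 13.59 and 14.13 in LTM 24 h cells and 12.52 and 12.43 in control cells, and the other 8 arrays lay between 12.37 and 12.67, so LTM 24 h stood alone. EIF4G1, the scaffold of the cap-binding complex, fell by 0.64 with 1 probe (adjusted p = 0.0226). That probe had 9.74 and 10.04 in LTM 24 h cells and 10.46 and 10.61 in control cells. The other EIF4G1 probe had -0.35, which did not pass on 12 arrays. EIF4E2, a cap-binding protein that can repress initiation, fell by 0.45 (adjusted p = 0.0416). That call was lost in 9 of 12 fits with 1 array left out, and the value was -0.29 without LTM 24 h replicate 2. EIF4B, the helper of the helicase, had 0.41 (adjusted p = 0.054) on 12 arrays and passed on 9 arrays (adjusted p = 0.03). EIF4E3 (-0.57), the 2 EIF4H probes (-0.22 and 0.03), EIF4ENIF1 (0.14), which shuttles EIF4E into the nucleus, and EIF4E1B, a relative of EIF4E known from oocytes that was not above background on either control array, did not pass on 12 arrays.

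The factors of start codon choice and subunit joining gave mixed changes, with 4 of 14 probes up, 2 down and a median of 0.17, the 2 probes of EIF1AY counted. The share called, 42.9%, was near the 40.9% of all probes. EIF1, the guardian of start codon choice, measured 13.67 and 13.58 in LTM 24 h cells and 12.72 and 12.71 in control cells (0.91 ± 0.30, adjusted p = 0.0293). EIF1AX, its partner in scanning, measured 7.99 and 8.06 in LTM 24 h cells and 8.89 and 8.97 in control cells with 1 probe (-0.91 ± 0.19, adjusted p = 0.00348), and its other probe had -0.24 and did not pass. The EIF1 call was lost without either control or either LTM 24 h array and under median scaling (0.37, adjusted p = 0.34), but the EIF1AX call was kept in all of these fits.

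EIF5, which triggers GTP hydrolysis by EIF2, gave 0.90 with a dim probe (adjusted p = 0.0359, and not called at 0.56 without control replicate 2 or at 0.46 without LTM 24 h replicate 2) and 0.52 with its other probe (adjusted p = 0.248 on 12 arrays and 0.017 on 9 arrays). EIF5A2, the minor form of the hypusine-carrying factor, rose by 0.85 (adjusted p = 0.0102). EIF5A, the major form, had -0.20 and EIF5B, the GTPase of subunit joining, had 0.25, neither of which passed. EIF6, which keeps free large subunits apart from small ones, had 0.01 with 1 probe and -0.27 with the other. EIF1B, the close relative of EIF1, had 0.47, and EIF5AL1, an EIF5A copy, was not above background on either control array. None of these 4 probes passed on 12 arrays, while EIF1B passed on 9 arrays (adjusted p = 0.0492).

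Of the 21 elongation factor probes, 4 rose and 4 fell in LTM 24 h cells, 19.0% in each direction and near the 20.0% and 20.9% of all probes, with a median of 0.18. EEF2, the translocase whose step LTM blocks, had 13.68 and 13.75 in LTM 24 h cells and 13.40 and 13.43 in control cells. Its log2 fold change of 0.30 did not pass (adjusted p = 0.126) and was -0.26 under median scaling. EEF1G, a structural subunit of the exchange factor, rose by 0.63 (adjusted p = 0.00692), but had 0.04 under median scaling. EEF1D, another subunit of it, fell with 2 probes, by 1.18 (adjusted p = 0.00222) and 0.70 (adjusted p = 0.00964), while its remaining probe was not above background on either control array and did not pass. The 4 EEF1B2 probes, for the catalytic subunit, had 0.41, 0.29, 0.46 and 0.02 and none passed on 12 arrays. The probe with 0.46 passed on 9 arrays (adjusted p = 0.0219).

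EEF1A2, the form of the tRNA carrier normally found in muscle and neurons, rose by 0.93 (adjusted p = 0.0223). It had 8.82 and 8.84 in LTM 24 h cells and 7.84 and 7.96 in control cells. The EEF1A2 call was lost in fits without either control or either LTM 24 h array, but was kept under median scaling (0.97). EEF1A1, the common form, had 14.81 and 14.86 in LTM 24 h cells and 14.88 and 14.80 in control cells with 1 probe, at the upper end of the scale, where the highest value was 14.92 and quantile normalization leaves no room to move. The EEF1A1 probe with 8.50 and 8.80 in LTM 24 h cells and 9.53 and 9.44 in control cells fell by 0.84 (adjusted p = 0.00468), and a further probe had 0.18, which did not pass. The probes of EEF1A1 may share signal with its many pseudogene copies.

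Of the enzymes that modify these factors, EEF1AKMT1, a lysine methyltransferase of EEF1A, had the lowest values of all arrays in LTM 24 h cells, at 6.43 and 6.28 against 7.53 and 7.53 in control cells (-1.17 ± 0.24, adjusted p = 0.00305). EEF2KMT, which methylates EEF2, had 9.45 and 8.91 in LTM 24 h cells and 7.80 and 7.86 in control cells with 1 probe (1.35, adjusted p = 0.0322). Its 3 other probes had 0.69, 0.39 and 0.08 and did not pass on 12 arrays. The EEF2KMT call was lost in fits without either control or either LTM 24 h array, but was kept under median scaling (1.39). EEFSEC, which delivers the selenocysteine tRNA, rose by 0.69 (adjusted p = 0.00894). EEF1AKMT2 (0.15) and EEF1AKMT3 (-0.19), further methyltransferases of EEF1A, and EIF3J-DT (-0.32) did not pass.

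Leaving out each of the 12 arrays in turn, 22 of the 40 LTM 24 h calls (19 genes) were made every time, and 17 of these were also made under median scaling. Those 17 are EIF4A2, EIF2B2, EIF2B5, EIF2A, EIF2D, EIF3A, EIF3D, EIF3J and the 3 EIF4G2 probes among the rises, and EIF1AX, EIF3K, EEF1AKMT1 and 1 probe each of EIF3B, EEF1A1 and EEF1D among the falls. The scaling acted most on probes at the top of the intensity range. Of 25 member probes with a mean log2 intensity of 12 or more, 13 (52%) rose under quantile normalization and 4 (16%) under median scaling, with medians of 0.50 and 0.04. Over all 854 probes in that range 17.8% rose under quantile normalization and 3.75% under median scaling, with medians of -0.18 and -0.67. Of 23 member probes from 10 to below 12, 7 (30.4%) rose under quantile normalization and 5 (21.7%) under median scaling. Of all 2369 probes in that range, 24.2% and 13.9% rose. For the 33 member probes under 10, 10 (30.3%) rose under either scaling. Of all 21102 probes under 10, 19.7% rose under quantile normalization and 18.5% under median scaling.

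**Figure D4:**
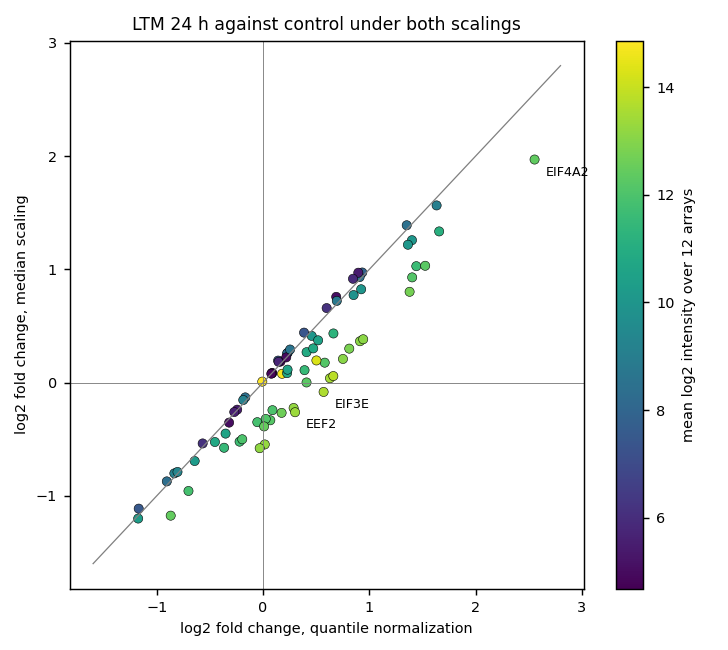
Log2 fold change of LTM 24 h over control for each member probe except EIF1AY under quantile normalization (x) and median scaling (y), coloured by mean log2 intensity, with the line of equal values. Most probes with a mean over 12 lie under the line, while EIF4A2 stays highest on both axes with 2.56 and 1.97.

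The regulators of these factors held both a larger rise and a larger fall than any member. PPP1R15A, also known as GADD34, which brings a phosphatase to EIF2S1, measured 14.06 and 14.06 in LTM 24 h cells and 10.70 and 10.91 in control cells, a log2 fold change of 3.25 (9.54-fold, adjusted p = 0.00983). EIF4EBP1, the repressor that holds EIF4E, measured 6.36 and 5.83 in LTM 24 h cells and 8.25 and 8.42 in control cells (-2.24, adjusted p = 0.000165). MKNK2, a kinase of EIF4E, fell with 1 of 2 probes by 1.75 (adjusted p = 0.0457). In all, 1 of 13 regulator probes rose and 2 fell on 12 arrays, where 20.0% of all probes rose and 20.9% fell, and 1 rose and 6 fell on 9 arrays, where 26.1% rose and 28.2% fell. PPP1R15A in LTM 8 h replicates 2 and 3 was 13.32 and 13.25, whereas LTM 8 h replicate 1 had 11.21 and TFT 8 h replicate 3 had 13.33, as for EIF4A2.

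Of 24 probes for partners of the factors, 9 rose and 3 fell in LTM 24 h cells on 12 arrays, where 20.0% of all probes rose and 20.9% fell. DHX29, a helicase that scans long leaders, rose with both probes (1.51 and 1.31), as did ABCE1, which splits ribosomes after termination (1.01 and 0.89). GSPT2, a release factor GTPase, rose by 1.14, DDX3X, a helicase of structured leaders, by 0.98, and PAIP2, an inhibitor of the poly(A)-binding protein, rose by 0.84 with 1 of 2 probes. The 3 falls were 2 of 3 probes of DHPS (-0.57 and -0.56) and the probe of DOHH (-0.48), the enzymes that make the hypusine of EIF5A. Of 18 probes of 10 genes with a well-known terminal oligopyrimidine motif, 4 rose and 3 fell, shares of 22.2% and 16.7% that were near those of all probes, with a median of 0.23. By the annotated start sequence, 6 of 12 member genes that begin with a pyrimidine run rose and 1 fell (median 0.40), against 12 and 3 of the 33 genes without it (median 0.23), a difference that was not tested.

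At 8 h, EIF4A2, EIF1 and EEF2KMT were higher and EIF1AX lower in LTM than in control cells once the arrays against their labels were left out. That choice of arrays was made from the same intensities, so the 9-array p-values for 8 h depend on it. On all 12 arrays 0 of 81 member probes passed, as did 0% of all probes. At an unadjusted p under 0.05 were 12 of 81 members and 3828 of all 24325 probes. The 9-array fit called 13 rises and 7 falls among the members, 20 in all, where 14.4% of all probes rose and 15.4% fell. The members' median was 0.08 and that of all probes -0.02. By subfamily, rises and falls were 0 and 1 for EIF2, 3 and 0 for EIF2B, 1 and 0 for EIF3, 1 and 2 for EIF4, 2 and 1 for EIF1, EIF5 and EIF6, and 6 and 3 for the elongation factors. Under median scaling the 9-array counts were 5 rises and 17 falls, where 10.5% of all probes rose and 25.0% fell, and the median was -0.17 over members and -0.14 over all probes.

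EIF4A2 again moved most, with 13.02 and 12.95 in LTM 8 h replicates 2 and 3 against 11.47 and 11.53 in control cells (1.49 ± 0.15, adjusted p = 9.02e-05). With replicate 1 included it had 1.02 ± 0.50 (adjusted p = 0.344). EIF1 had 13.60 and 13.43 in these LTM 8 h arrays and 12.72 and 12.71 in control cells, a rise of 0.80 (adjusted p = 0.00128). EEF2KMT rose with 3 of 4 probes, by 1.29, 1.10 and 0.53. EIF1AX had 7.85 and 8.05 in these LTM 8 h arrays and 8.89 and 8.97 in control cells with 1 probe (-0.98 ± 0.15, adjusted p = 0.000881), and its other probe had -0.41 and did not pass.

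EIF2B2, EIF2B5 and EIF2B1 had smaller rises at 8 h of 0.59, 0.59 and 0.38, and EIF2A (0.29) did not pass. EIF3D rose by 0.43 and was the only one of 19 EIF3 probes called on 9 arrays. EIF5 rose by 0.55 with 1 probe, and EEF1B2 rose with 3 of 4 probes by 0.64, 0.54 and 0.46. EEF1A2 fell by 0.58 (adjusted p = 0.00721), 1 of 2 EIF4H probes by 0.51, EIF4E3 by 0.48, EIF2S2 by 0.44, and 1 probe each of EEF1A1 and EEF1D by 0.54 and 0.50.

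Of these 20 calls, 5 probes of 4 genes were called in each of 8 fits that left out 1 of the other arrays: EIF4A2, EIF1, EIF1AX and 2 EEF2KMT probes. All 5 were also called under median scaling. The count of member calls went down to 7 without control replicate 2, to 8 without control replicate 1 or LTM 8 h replicate 2, and to 9 without LTM 8 h replicate 3. Beside them, PPP1R15A rose by 2.48, and MKNK2 (-1.77 with 1 probe), EIF2AK2 (-1.06) and PDCD4 (-0.70) fell. The other MKNK2 probe and EIF2AK3 were not above background in LTM 8 h replicates 2 and 3 and were at least 1.46-fold and at least 1.12-fold lower there than in control cells (adjusted p = 0.0031 and 0.0419). Of the 24 partner probes, GSPT2 rose (0.73) and 4 fell, those of DDX3X (-0.79), PAIP1 (-0.87), MCTS1 (-0.61) and PABPC1. PABPC1, the poly(A)-binding protein, had 13.45 and 13.24 in these LTM 8 h arrays and 13.70 and 13.55 in control cells with 1 probe, which did not pass, and fell by 1.64 with the other (adjusted p = 0.000179).

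Under quantile normalization no translation factor probe passed the test for TFT. On 9 arrays at 8 h, median scaling called 2 member falls, where 7.08% of all probes fell. Flooring signals at 16 called 1 member fall there, where 1.28% of all probes fell. In TFT 24 h cells relative to control cells, 0 of 81 members were called on 12 arrays, where 0% of all probes were. An unadjusted p under 0.05 was found for 5 members and for 1236 of all 24325 probes. On 9 arrays TFT 24 h holds replicate 2 alone, so only its median is given here. In TFT 8 h cells 0 members were called on 12 arrays (0% of all probes). There 3 members and 2200 of all probes had an unadjusted p under 0.05. On 9 arrays 0 members were called at 8 h, where 1.67% of all probes were. An unadjusted p under 0.05 was then found for 6 members and for 4438 of all probes. Member medians for TFT on 9 arrays were -0.02 at 24 h and 0.02 at 8 h.

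EIF3D, EIF1AX and an EEF1B2 probe had an unadjusted p under 0.05 at both times on 12 arrays without passing the adjusted threshold. EIF3D had 12.10 and 12.07 in TFT 24 h cells and 12.05, 12.03 and 12.10 in TFT 8 h cells, against 11.79 and 11.71 in control cells, with log2 fold changes of 0.33 and 0.31 (adjusted p = 0.966 and 0.511). EIF1AX had 8.50 and 8.44 in TFT 24 h cells and 8.70, 8.39 and 8.30 in TFT 8 h cells, against 8.89 and 8.97 in control cells (-0.46 and -0.47, adjusted p = 0.966 and 0.493). The EEF1B2 probe had 0.32 at 24 h and 0.41 at 8 h. These comparisons share the 2 control arrays with each other and with those of LTM.

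Set directly against TFT at 24 h, LTM left factors of EIF2B, EIF3 and EIF4 higher. On 12 arrays 28 member probes were higher and 7 lower in LTM 24 h than in TFT 24 h cells, where 19.9% of all probes were higher and 20.3% lower, with a median of 0.29 over members and -0.05 over all probes. On 9 arrays, with 1 TFT array, 30 were higher and 7 lower, where 23.9% and 25.3% of all probes were, and 33 calls were shared by both fits. EIF4A2 had 13.87 and 14.24 in LTM 24 h cells against 11.73 and 11.53 in TFT 24 h cells, a difference of 2.42 ± 0.54 (adjusted p = 0.0047). The 3 EIF4G2 probes (up to 1.74), EIF2B5 (1.52), EIF2A (1.41), EIF3D (1.19) and EIF3J (1.19) followed, with EIF2B2 at 12.24 and 12.28 in LTM 24 h cells and 10.74 and 10.78 in TFT 24 h cells. EEF2 was higher by 0.54 (adjusted p = 0.013), with 13.68 and 13.75 in LTM 24 h cells and 13.24 and 13.12 in TFT 24 h cells, whereas the LTM 24 h over control difference had not passed. EEF1AKMT1, at 6.43 and 6.28 in LTM 24 h cells and 7.86 and 7.92 in TFT 24 h cells, was lower by 1.53 on the log2 scale (log2 fold change -1.53, adjusted p = 0.00069). Further members lower in LTM 24 h cells were 1 probe each of EEF1D (-0.91), EEF1A1 (-0.82) and EIF3B (-0.50), with EIF3K (-0.81), EIF4E2 (-0.78) and EIF2S1 (-0.61). The EIF2S1 call was lost on 9 arrays, where TFT 24 h replicate 1, at 8.90, was left out and the value was -0.38 (adjusted p = 0.125).

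Member calls between the drugs at 8 h were made only without the 3 arrays. On 12 arrays 0 members were called, where 0% of all probes were. An unadjusted p under 0.05 was found for 3 of 81 members and for 843 of all 24325 probes. On 9 arrays 10 were higher and 4 lower in LTM 8 h than in TFT 8 h cells, where 13.7% of all probes were higher and 13.5% lower. EIF4A2 had 13.02 and 12.95 in LTM 8 h replicates 2 and 3 and 11.63 and 11.54 in TFT 8 h replicates 1 and 2 (1.40 ± 0.15, adjusted p = 0.000145). EIF5 had 11.18 and 10.91 in these LTM 8 h arrays and 10.07 and 10.08 in these TFT 8 h arrays (0.97, adjusted p = 0.00157), 3 EEF2KMT probes were higher by 1.22, 0.97 and 0.51, EIF1 by 0.71, EIF2B5 by 0.57 and EIF2B2 by 0.51. EIF2S2 (-0.65), EIF1AX (-0.59), EEF1AKMT1 (-0.52) and EEF1A2 (-0.51) were lower. The probes of EIF3J-DT and EIF4E1B were not above background on any of these TFT 8 h arrays, so they were at least 1.51-fold and at least 1.25-fold higher in LTM 8 h cells (adjusted p = 0.0248 and 0.0111). Without TFT 8 h replicate 1 the member calls went down to 5, and without LTM 8 h replicate 2 to 7.

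The difference of LTM from TFT was itself different at 24 h and 8 h for 18 member probes on 12 arrays, where this held for 22.5% of all probes. It was more positive at 24 h for 14 (17.3%) and more negative for 4 (4.94%), against 11.4% and 11.1% of all probes. Counted in either direction, the comparison on fewer arrays was as follows. On 9 arrays it held for 23 member probes, where it held for 27.9% of all probes. The members' share was near that of all probes on either set of arrays.

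Between the LTM times, EIF4G2, EIF4A2, EEF1A2, EIF2A, EIF2B2, EIF3CL and EIF3D were among the members higher at 24 h by more than 1 on the log2 scale. On 12 arrays 26 member probes were higher and 7 lower in LTM 24 h than in LTM 8 h cells, where 17.1% of all probes were higher and 16.3% lower (median 0.28 over members, -0.04 over all probes). On 9 arrays 29 were higher and 13 lower, where 21.5% and 21.8% of all probes were, and all 33 calls of the 12-array fit were among them. EIF4G2 had 13.59 and 14.13 with 1 probe in LTM 24 h cells against 12.37, 12.66 and 12.59 in LTM 8 h cells, and its 3 probes were higher by 1.32, 1.34 and 1.60. EIF2A was higher by 1.25, EIF2B2 by 1.17, EIF3D by 1.08 and EIF4A2 by 1.54 (1.07 on 9 arrays).

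EEF1A2 changed side: it had 8.82 and 8.84 in LTM 24 h cells, 7.34 and 7.30 in LTM 8 h replicates 2 and 3 and 8.07 in LTM 8 h replicate 1, against 7.84 and 7.96 in control cells. LTM 24 h was higher than LTM 8 h by 1.26 on 12 arrays (adjusted p = 0.00341) and by 1.51 on 9 arrays (adjusted p = 2.15e-05). EIF1 and EEF2KMT, which had risen at 8 h on 9 arrays, passed no test for a further rise at 24 h. EIF1 had 13.67 and 13.58 in LTM 24 h cells and 13.60 and 13.43 in LTM 8 h replicates 2 and 3, and 1 of 4 EEF2KMT probes was lower at 24 h (-0.41 on 9 arrays). EIF2S2 had fallen at 8 h on 9 arrays and was higher by 0.67 in LTM 24 h than in LTM 8 h cells. Lower at 24 h than at 8 h were EEF1AKMT1 (-1.25), EIF4E2 (-0.75), EIF3K (-0.68), 2 EEF1D probes (-0.81 and -0.56) and 1 EIF3B probe (-0.67).

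Over the 12 arrays, the members whose levels ran most like those of EIF4A2 were EIF2B5 (Pearson r = 0.96), EIF1 (0.96), EIF2B2 (0.95), EIF3J (0.92) and EIF2A (0.92), with 1 probe per gene. Over the 5 group means the same genes had 0.99, 0.98, 0.99, 0.96 and 0.96. These values describe the likeness across arrays that share 1 chip and are given without a test.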

How the data were processed

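The expression of WM35 cells was measured on 12 Illumina 1-colour BeadChip arrays. The scanner table deposited by the authors gives linear intensity values for each probe. The submitters' processing notes name GenomeStudio, whose version is not given in the sources used here. Between 27.3% and 29.3% of the intensities on an array were below 0, so background had been subtracted. Each deposited intensity is paired with a detection p-value, per the file headers. Array means ran between 314.6 and 415.4, and the number of arrays limits the precision. The authors' processed table of linear intensities (38223 probes, column medians 23.5 to 25.2) tracked its own arrays by rank at 0.969 to 0.978 and served as an alternative. Its background correction, normalization and choice of probes stay unknown.

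Intensities were corrected and quantile-normalized with neqc of limma 3.58.1 in R 4.3.3 (offset 16), using the detection p-values. Probes detected at p under 0.05 on at least 2 arrays were kept. Gene symbols came from the platform annotation, which names 27004 probes of the processed table with 1 symbol and 4 with several. It does not list 11215, and 26970 matched RefSeq. One model with 5 groups was fitted with lmFit and eBayes over all 24325 probes (7 residual degrees of freedom on 12 arrays, 4 on 9 arrays), and p-values were adjusted over all of them by Benjamini-Hochberg. It was tested on simulated data. Named members were, per subfamily and comparison, the largest changes past the threshold on 12 and on 9 arrays and a list of core factors, with up to 5 regulators or partners, and others where a count is small. A called probe that was not above background on any array of 1 group is given a lower bound for its fold change, and other such probes get no value. The members, the lists of regulators, partners and terminal oligopyrimidine genes and the 9-array fit were chosen with earlier results of these data known. Replicate numbers do not pair arrays: the deviations of same-numbered arrays correlated at -0.53 to 0.63. Alternatives were median scaling, signals floored at 16, filters, a trended or robust fit, 1 probe per gene, fits of only the 2 groups compared, the authors' table, a replicate block, and leaving out each array.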

Additional observations from a re-analysis of the deposited data

Results flagged for a closer look

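For 18 member probes the difference of LTM from TFT was not the same at 24 h as at 8 h in limma on 12 arrays (adjusted p 0.00134 to 0.0444). That is 22.2% of the members, near the 22.5% of all probes that passed the same test. By direction, 17.3% of the members were positive and 4.94% negative, against 11.4% and 11.1% of all probes. The number given is the LTM minus TFT difference at 24 h less the same difference at 8 h, on the log2 scale. EIF4G2 had 1.28, 1.29 and 1.74 with its 3 probes. The EIF2 group and EIF2B followed, with 1.35 for EIF2B5, 1.34 for EIF2A and 1.32 for EIF2B2. Among EIF3 subunits it was 1.32 for EIF3J, 1.21 for EIF3CL, 1.06 for EIF3D, 1.02 for EIF3A, 0.91 for EIF3I, 0.84 for EIF3C and 0.67 for 1 EIF3L probe. EEF1G, an elongation factor subunit, had 0.71. The values were negative for EEF1AKMT1 (-1.36), EIF4E2 (-0.80), EIF3K (-0.71) and 1 EIF3B probe (-0.59). On 9 arrays all but EIF3C (0.75, adjusted p = 0.0905) still passed. All 3 arrays that went against their labels belong to the LTM 8 h, TFT 8 h and TFT 24 h groups, and their part in these values was tested only by leaving them out.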

How the results depend on the processing

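LTM 24 h against control called 40 member probes, and 31 to 43 under the other settings with all arrays, from 1 probe per gene (31 of 57) to a fit of only the 2 groups compared (43). Median scaling called 34, of which 19 were rises and 15 falls, where quantile normalization gave 30 and 10. Of all 24325 probes, 4260 rose and 5356 fell under median scaling. It turned EIF3E to -0.083 and 1 EEF1B2 probe to -0.55. Leaving out 1 array gave 26 to 41, with 26 without control replicate 1 and 26 without control replicate 2. LTM 8 h against control called 0 probes on 12 arrays, 20 without the 3 arrays that go against their labels, 1 with signals floored at 16, and 0 to 3 with 1 array left out, the 3 being without LTM 8 h replicate 1. LTM against TFT called 35 at 24 h, with 23 to 37 leaving out 1 array (23 without TFT 24 h replicate 2 or LTM 24 h replicate 2) and 26 under median scaling. At 8 h it called 0, and 14 without the 3 arrays. LTM 24 h against LTM 8 h called 33, with 20 to 33 leaving out 1 array (20 without LTM 24 h replicate 2). On 9 arrays, in settings added after seeing the data, leaving out a further array gave 37 to 46 calls for LTM 24 h, 7 to 23 for LTM 8 h and 5 to 22 for LTM against TFT at 8 h. TFT kept 0 calls in every setting with 12 arrays, while on 9 arrays median scaling called 1 fall at 24 h and 2 at 8 h, and flooring 1 at 8 h. The causes of these changes were not tested.

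Replicate numbers were not used to pair these arrays in the main fit. With a replicate block the counts were 39 for LTM 24 h, 0 for LTM 8 h, 0 for TFT 24 h, 0 for TFT 8 h, 35 and 0 for LTM against TFT at 24 h and at 8 h, and 32 for LTM 24 h against LTM 8 h. Crossing the TFT 24 h numbers in the block, a setting added after seeing the data, gave 36 for LTM against TFT at 24 h. With 2 or 3 arrays a group, small changes cannot be detected, and probes near the highest intensity cannot show a rise.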
